A study of Mus musculus with 12 samples.

Results

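The albumin gene family and the regulators of alpha-fetoprotein were followed in RNA from mouse liver at P14, 14 days after birth. The 7 genes were taken by name: the plasma proteins albumin (Alb), alpha-fetoprotein (Afp), afamin (Afm) and vitamin D binding protein (Gc), the zinc finger repressors Zhx2 and Zbtb20, and the cell surface proteoglycan glypican 3 (Gpc3). They are 7 of the 47069 genes listed and 7 of the 17386 genes tested, which have a mean level of at least 0.1 FPKM over the 12 libraries. FPKM, mapped fragments scaled to transcript length and to library size, is a level per length.

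The study examined what follows when hepatocytes lose the mitotic kinase Cdk1 and can no longer divide. Cdk1 Liv-/- mice came from a cross of Cdk1 flox/flox mice with Albumin-Cre mice, in which the promoter of Alb itself drives the Cre recombinase, and they were compared with WT mice of the same age. RNA was taken from isolated hepatocytes and from whole liver, which also holds ductal, endothelial, stellate and blood cells, with 3 libraries in each of the 4 groups. Neither the strain nor the Cre and flox status of the WT mice is stated in the texts at hand. The methods of the study give at least 3 biological replicates for its experiments in general. The labels number the libraries of a group but do not say that each came from its own animal, so p-values measure the spread between these samples.

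Alb, Afp, Afm and Gc descend from a common ancestral gene and encode carrier proteins that hepatocytes secrete into plasma. Alb and Afp are both strongly transcribed in fetal liver, and after birth Afp is silenced while Alb stays on. In the mouse, Zhx2 and Zbtb20 are repressors needed for that silencing, and Gpc3 is a further fetal liver gene whose postnatal repression depends on Zhx2.

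Cdk1, the deleted gene, was the check of the genotype. Its level in isolated hepatocytes was 27.9, 20.4 and 28.2 FPKM in WT replicates 1 to 3, and 9.68, 11.8 and 6.87 FPKM in Cdk1 Liv-/- replicates 1 to 3. In whole liver it was 25.3, 22.7 and 21.5 FPKM in WT and 11.7, 12.1 and 14.2 FPKM in Cdk1 Liv-/-. The genotypes did not overlap in either compartment, and Cdk1 fell by 1.40 on the log2 scale in hepatocytes (adjusted p = 0.0148) and by 0.85 in whole liver (adjusted p = 0.00353), or by 0.93 without the library described next (adjusted p = 0.00791). Transcript remained in every Cdk1 Liv-/- library, and how much of it lacked the floxed exon cannot be read from gene levels.

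A single library stood apart. Whole liver Cdk1 Liv-/- replicate 3 had 158 FPKM of Xist, the RNA of the inactive X chromosome, where the other 11 libraries had at most 0.14 FPKM. Of Y-linked transcripts it had 0 for each of Ddx3y, Uty, Kdm5d and Eif2s3y, against 14.3 to 22.7 FPKM of Ddx3y in the others. This is the pattern of a female, while the methods of the study describe the use of males. Whole liver results of the 7 genes and counts of lists are therefore given with and without this library. Other genes named as changed in whole liver passed the test in the same direction without it, unless said otherwise.

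Depth was read from the spacing of the lowest FPKM values. For hepatocytes, an FPKM of 1 on 1 kb of transcript came to 38.5 to 49.8 reads (WT) and 34.7 to 40.4 reads (Cdk1 Liv-/-). For whole liver it came to 41.6 to 43.3 reads (WT) and 47.3 to 48.1 reads (Cdk1 Liv-/-). Counting error is therefore small for Alb, Gc, Afm, Afp and Gpc3. It is larger for Zhx2 and Zbtb20, which lay between 1.11 and 3.70 FPKM.

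The annotation, GENCODE M21 on GRCm38, places 3 family genes in a row on the forward strand of chromosome 5: Alb at chr5:90460897-90476602, Afp at chr5:90490737-90508907 and Afm at chr5:90518932-90553543. Gc lies on the reverse strand at chr5:89417522-89457898, and its start is -1003 kb from that of Alb. A further family gene, 5830473C10Rik, named albumin superfamily member 1 (Albfm1) in RefSeq, starts 100.2 kb after Alb on the same strand. Zhx2 lies at chr15:57694665-57839832, Zbtb20 at chr16:42875881-43642602 and Gpc3 at chrX:52272426-52613950. On the opposite strand, Gm43449 overlaps Afp and Gm43448 overlaps Afm, with at most 1.35 and 1.80 FPKM. The library kit keeps the strand, but the texts at hand do not say whether counting used it, so reads of these pairs cannot be told apart with certainty. Zbtb20 has 21 annotated transcripts of 267 to 26901 bp, and the processed pseudogene BC002163 inside it reached 99.7 FPKM on the same strand.

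The promoters of the 5 family genes are shown because neighbouring starts gave changes in different directions. Each run holds 300 bases of GRCm38.p6 from RefSeq, 250 before and 50 after the start, written 5′ to 3′ on the strand of the gene. Of the 7 members, 6 had a promoter in that table, and Zhx2 is named only. Capitals mark the TATA box letters TATAAA and the letters of CCAAT boxes. Both strands were searched, so some capitals show the complement of a motif.
Alb: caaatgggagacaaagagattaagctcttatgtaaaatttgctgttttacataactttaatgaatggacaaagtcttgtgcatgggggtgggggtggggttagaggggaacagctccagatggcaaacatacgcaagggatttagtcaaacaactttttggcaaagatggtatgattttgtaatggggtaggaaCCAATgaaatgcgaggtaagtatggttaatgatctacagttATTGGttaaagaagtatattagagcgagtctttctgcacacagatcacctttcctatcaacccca
Afp: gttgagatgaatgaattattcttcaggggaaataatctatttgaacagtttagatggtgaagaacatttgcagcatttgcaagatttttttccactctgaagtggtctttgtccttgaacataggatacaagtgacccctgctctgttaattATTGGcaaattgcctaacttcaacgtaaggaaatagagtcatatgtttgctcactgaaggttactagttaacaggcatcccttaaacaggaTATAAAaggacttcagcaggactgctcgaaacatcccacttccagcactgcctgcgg
Afm: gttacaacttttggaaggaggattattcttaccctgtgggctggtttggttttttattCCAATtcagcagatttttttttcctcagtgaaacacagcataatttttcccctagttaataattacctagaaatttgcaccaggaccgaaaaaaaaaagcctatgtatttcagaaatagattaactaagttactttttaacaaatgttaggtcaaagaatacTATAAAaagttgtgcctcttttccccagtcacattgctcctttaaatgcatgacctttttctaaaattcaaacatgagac
5830473C10Rik: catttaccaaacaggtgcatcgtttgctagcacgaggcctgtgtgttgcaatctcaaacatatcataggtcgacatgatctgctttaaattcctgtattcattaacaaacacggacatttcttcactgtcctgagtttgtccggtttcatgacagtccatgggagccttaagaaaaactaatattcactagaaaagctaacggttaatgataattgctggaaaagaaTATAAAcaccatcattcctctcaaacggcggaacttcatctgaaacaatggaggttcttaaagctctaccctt
Gc: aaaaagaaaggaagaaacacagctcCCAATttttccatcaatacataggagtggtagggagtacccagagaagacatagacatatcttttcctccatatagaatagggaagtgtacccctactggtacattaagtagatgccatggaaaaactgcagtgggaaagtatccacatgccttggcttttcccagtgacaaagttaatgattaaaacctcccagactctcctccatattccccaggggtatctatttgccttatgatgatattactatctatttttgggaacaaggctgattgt
The runs lie at chr5:90460620-90460919 for Alb, chr5:90490464-90490763 for Afp, chr5:90518699-90518998 for Afm and chr5:90560959-90561258 for 5830473C10Rik, all on the forward strand, and at chr5:89457849-89458148 on the reverse strand for Gc. RefSeq starts were -27, -23, 17, 102 and 0 bases from the GENCODE starts of Alb, Afp, Afm, 5830473C10Rik and Gc.

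TATAAA was found once in Afp, Afm and 5830473C10Rik, and in 13.6% of 32851 promoters of the same length. CCAAT was found in Alb at 2 places and in Afp, Afm and Gc at 1, and in 37.4% of promoters. The promoter windows of Gpc3 and Zbtb20 held 1 CCAAT each and no TATAAA. That of Zbtb20 is at a start inside the annotated gene, 1 of several possible starts, and that of Gpc3 was 70.7% G and C. A match describes letters only, and binding was not measured.

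**Figure D1:**
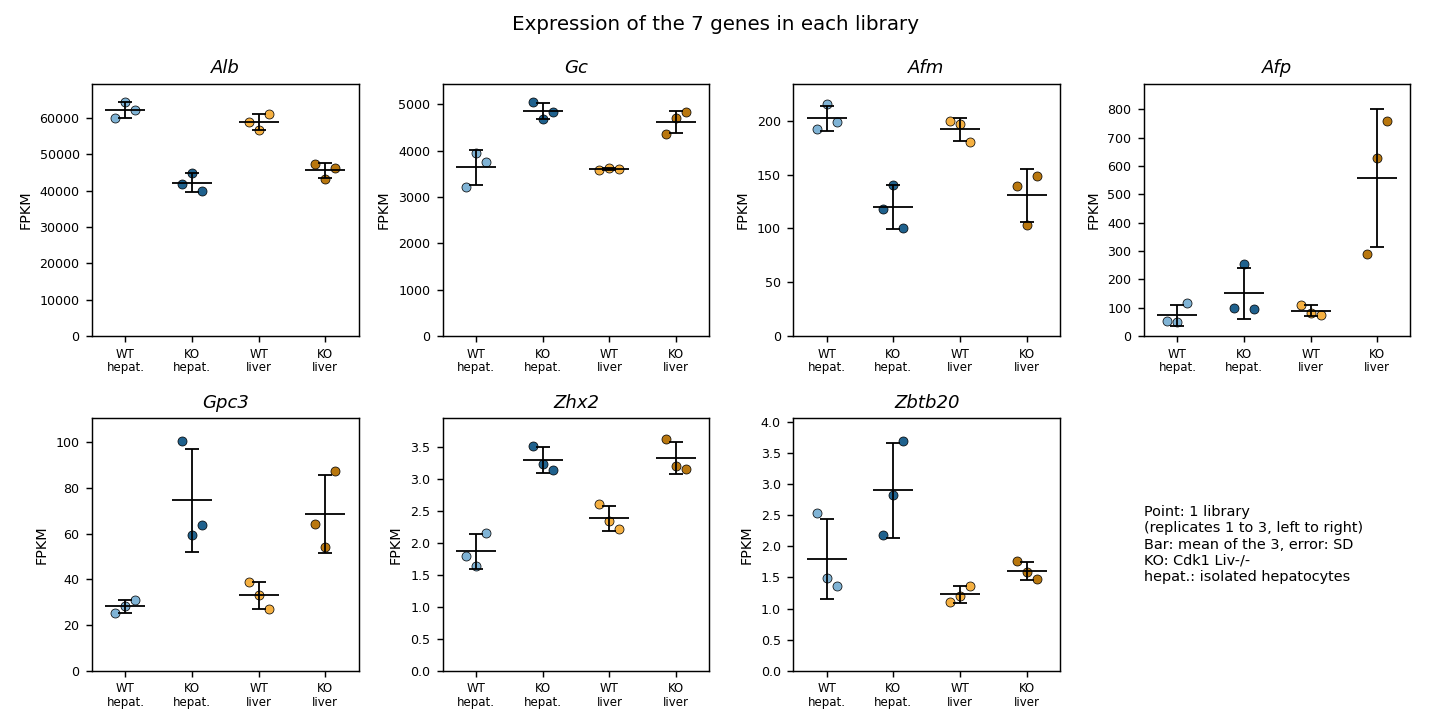
FPKM of the 7 genes (vertical axes, linear, from 0) in the 4 groups, with a point for each library, a bar for the mean of 3 and the SD as error. Alb lay between 39898 and 44890 FPKM in Cdk1 Liv-/- hepatocytes and between 60008 and 64298 FPKM in WT, while Afp reached 759 FPKM in Cdk1 Liv-/- whole liver.

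The first question was which of these genes differ between genotypes within isolated hepatocytes. A gene was taken to rise or fall at an adjusted p of at most 0.1 from limma on log2(FPKM + 0.5), and was called when its log2 fold change was also at least 1 in size. Gpc3 and Zhx2 rose, which is 2 of 7 genes where 12.1% of all genes tested rose, and Afm fell, which is 1 of 7 where 6.61% of all genes fell. Gpc3 alone was called higher, 1 of 7 against 4.2% of all genes. For Alb, Afm, Gc, Zhx2 and Gpc3 the 3 Cdk1 Liv-/- hepatocyte libraries did not overlap the 3 WT ones, 5 of 7 genes where 34% of all genes did not overlap.

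The same question was put to whole liver, against its own WT libraries. Afp, Gpc3, Zhx2, Gc and Zbtb20 rose, 5 of 7 genes where 38% of all genes rose, and Afm fell, 1 of 7 where 7.53% of all genes fell. Afp and Gpc3 were called higher, 2 of 7 against 4.59% of all genes. The genotypes did not overlap for any of the 7 genes, where 52.1% of all genes did not overlap. Without Cdk1 Liv-/- replicate 3, 5 of the 7 passed, 4 higher and 1 lower, where 5461 of all genes rose and 991 fell. The median log2 fold change of all genes in whole liver was 0.18 as deposited and 0.04 after median-ratio size factors, which set the typical gene to the same level in every library. Whole liver changes of the 7 genes are therefore also given on that scale, and other whole liver changes where stated.

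**Figure D2:**
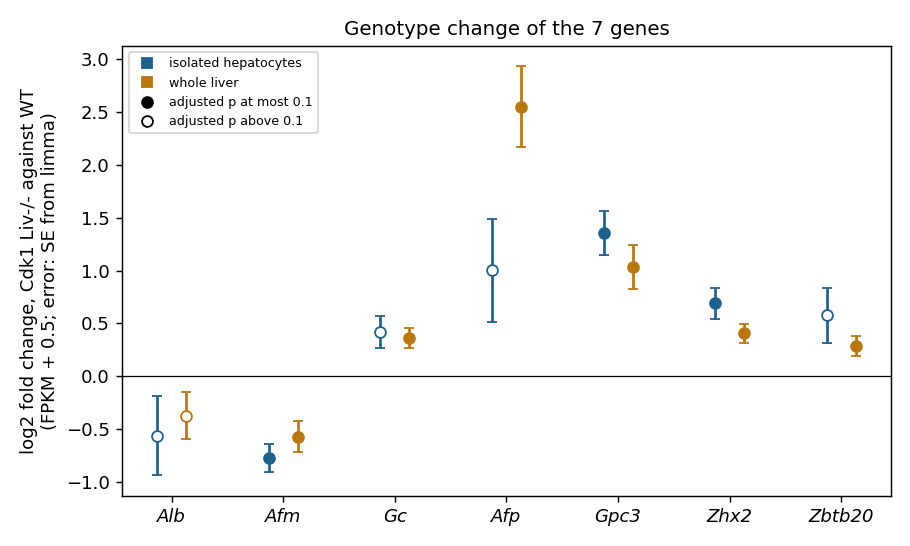
Log2 fold change of FPKM + 0.5 (vertical axis), Cdk1 Liv-/- against WT, for the 7 genes in isolated hepatocytes (blue) and whole liver (brown), with the SE from limma as error and filled points for an adjusted p of at most 0.1. Afp in whole liver is the highest point at 2.55, and Afm in hepatocytes the lowest at -0.77.

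Albumin, the main carrier and osmotic protein of plasma, was the most abundant transcript of all genes in every group. Isolated hepatocytes held 60008, 64298 and 62222 FPKM of Alb in WT and 41868, 44890 and 39898 FPKM in Cdk1 Liv-/-. In whole liver the values were 58998, 56843 and 61172 FPKM in WT and 47348, 43328 and 46153 FPKM in Cdk1 Liv-/-. Every Cdk1 Liv-/- library was below every WT library of its compartment. The means were 62176 ± 2145 and 42219 ± 2514 FPKM in hepatocytes and 59004 ± 2164 and 45610 ± 2064 FPKM in whole liver (SD, n = 3), ratios of 0.679 and 0.773.

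The log2 fold change of Alb was -0.56 (SE 0.38, adjusted p = 0.376) in hepatocytes and -0.37 (SE 0.22, adjusted p = 0.242) in whole liver, so Alb did not pass the test in either. Here limma draws the variance of a gene towards a trend with expression level, and Alb lies at the upper end of that trend. With the spread of Alb alone, as a two-sample test with q-values takes it, the SE was 0.06 and 0.05 and the adjusted p was 0.0158 and 0.00704. It also passed without the trend (adjusted p = 0.0193 and 0.0115) and with a filter at a mean of 1 FPKM (0.0513 and 0.029). Over the 12 planned settings the adjusted p of Alb ran from 0.0158 to 0.921 in hepatocytes and from 0.00704 to 1 in whole liver. Without Cdk1 Liv-/- replicate 2 it passed in whole liver at -0.34 (adjusted p = 0.0728), without replicate 3 it was at -0.38 (adjusted p = 0.405), and under median-ratio scaling it was -0.56.

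Afamin, a carrier of vitamin E and of Wnt proteins, had less than 1% of the level of Alb. Its values in hepatocytes were 193, 216 and 199 FPKM in WT and 118, 141 and 100.1 FPKM in Cdk1 Liv-/-. Those of whole liver were 199.8, 197 and 180.2 FPKM in WT and 139.9, 103 and 149 FPKM in Cdk1 Liv-/-. All 6 Cdk1 Liv-/- libraries were below all 6 WT libraries. Afm fell by 0.77 on the log2 scale (SE 0.13, adjusted p = 0.0195) in hepatocytes, from 203 ± 11.8 to 119.6 ± 20.5 FPKM. In whole liver it fell by 0.57 (SE 0.15, adjusted p = 0.0304), by 0.68 without replicate 3 (adjusted p = 0.0377) and by 0.76 under median-ratio scaling. With no filter on low values Afm did not pass in either compartment (adjusted p = 0.11 and 0.131), and over all 12 settings the highest adjusted p were these.

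The further family gene 5830473C10Rik, downstream of Afm, was 49.1, 45.1 and 44.0 FPKM in WT hepatocytes and 23.8, 30.0 and 23.9 FPKM in Cdk1 Liv-/- hepatocytes. In whole liver it was 35.4, 37.8 and 41.7 FPKM in WT and 27.9, 20.3 and 24.8 FPKM in Cdk1 Liv-/-. The genotypes did not overlap in either compartment. It fell by 0.83 (adjusted p = 0.00937) in hepatocytes and by 0.65 (adjusted p = 0.0147) in whole liver, and by 0.67 without replicate 3 (adjusted p = 0.0437).

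Vitamin D binding protein, which carries vitamin D metabolites and binds free actin in plasma, went the other way. Gc stood at 3218, 3940 and 3759 FPKM in WT hepatocytes and at 5049, 4683 and 4841 FPKM in Cdk1 Liv-/- hepatocytes. Whole liver gave 3582, 3627 and 3599 FPKM in WT and 4361, 4697 and 4826 FPKM in Cdk1 Liv-/-. The lowest Cdk1 Liv-/- library was above the highest WT library in both compartments, and the WT whole liver libraries lay within an SD of 23 FPKM.

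Gc rose in whole liver, from 3602 to 4628 ± 240 FPKM, with a log2 fold change of 0.36 (SE 0.09, adjusted p = 0.0328). Its change of 0.42 in hepatocytes (SE 0.15, adjusted p = 0.133) missed the threshold. Gc did not pass in whole liver without replicate 3 (0.33, adjusted p = 0.104), without any 1 of the WT libraries (adjusted p 0.113 to 0.129) and under median-ratio scaling (0.17, adjusted p = 0.265), where the adjusted p over the 12 settings ran from 0.00634 to 0.289. In hepatocytes the adjusted p ran from 0.0173 to 0.315 over the settings, and 5 of 12 put Gc past the threshold.

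Within the family, the share of Gc was therefore larger in Cdk1 Liv-/- livers. Of the summed FPKM of Alb, Afp, Afm and Gc, Gc made up 5.07%, 5.75% and 5.67% in WT hepatocytes and 10.7%, 9.37% and 10.8% in Cdk1 Liv-/- hepatocytes. In whole liver its share was 5.70%, 5.97% and 5.53% in WT and 8.36%, 9.63% and 9.30% in Cdk1 Liv-/-. The groups did not overlap. The family sum was 66090 ± 2523 and 47346 ± 2523 FPKM in WT and Cdk1 Liv-/- hepatocytes, and 62888 ± 2138 and 50927 ± 1883 FPKM in whole liver. Alb alone was 9.13%, 9.40% and 9.03% of all FPKM in WT hepatocytes and 5.996%, 6.92% and 6.07% in Cdk1 Liv-/- hepatocytes. In a bulk sample these shares do not give the RNA of a gene per hepatocyte, and the part of hepatocyte number in them was not tested. Cell type markers of the same libraries are given below.

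Alpha-fetoprotein, the fetal counterpart of albumin, showed the largest change of the 7 genes in whole liver, while in hepatocytes it did not pass and Gpc3 changed most. Hepatocytes held 51.6, 50.5 and 116 FPKM of Afp in WT and 100.2, 254 and 96.5 FPKM in Cdk1 Liv-/-. In whole liver its level was 110.1, 82.3 and 74.5 FPKM in WT and 288, 628 and 759 FPKM in Cdk1 Liv-/-. In whole liver every Cdk1 Liv-/- library was above every WT library. In hepatocytes the genotypes overlapped, since WT replicate 3 was above Cdk1 Liv-/- replicates 1 and 3.

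In whole liver Afp rose from 89.0 ± 18.7 to 559 ± 243 FPKM (SD, n = 3), 6.28 times the WT mean. The log2 fold change was 2.55 (SE 0.38, adjusted p = 0.00701), 2.27 without replicate 3 (adjusted p = 0.0231) and 2.36 under median-ratio scaling. Among all genes ranked by mean level, Afp stood at 799 in WT whole liver and at 115 in Cdk1 Liv-/- whole liver. The hepatocyte means were 72.7 ± 37.5 and 150.2 ± 90.0 FPKM, with a log2 fold change of 1.00 (SE 0.48, adjusted p = 0.231), which did not pass. That value rested on single libraries: it was 0.55 without Cdk1 Liv-/- replicate 2 and 1.39 without WT replicate 3 (adjusted p = 0.144), and no library left out brought it past the threshold.

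Set against albumin in the same library, there were 0.860, 0.785 and 1.86 FPKM of Afp per 1000 FPKM of Alb in WT hepatocytes and 2.39, 5.66 and 2.42 in Cdk1 Liv-/- hepatocytes. Whole liver had 1.87, 1.45 and 1.22 in WT and 6.09, 14.5 and 16.5 in Cdk1 Liv-/-. On this ratio the genotypes did not overlap in either compartment, and it does not depend on the scaling between libraries. The mean log2 ratio was higher in Cdk1 Liv-/- by 1.57 in hepatocytes and by 2.93 in whole liver, or by 1.35 and 2.62 when Afp was set against 16 other plasma carrier proteins summed.

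**Figure D3:**
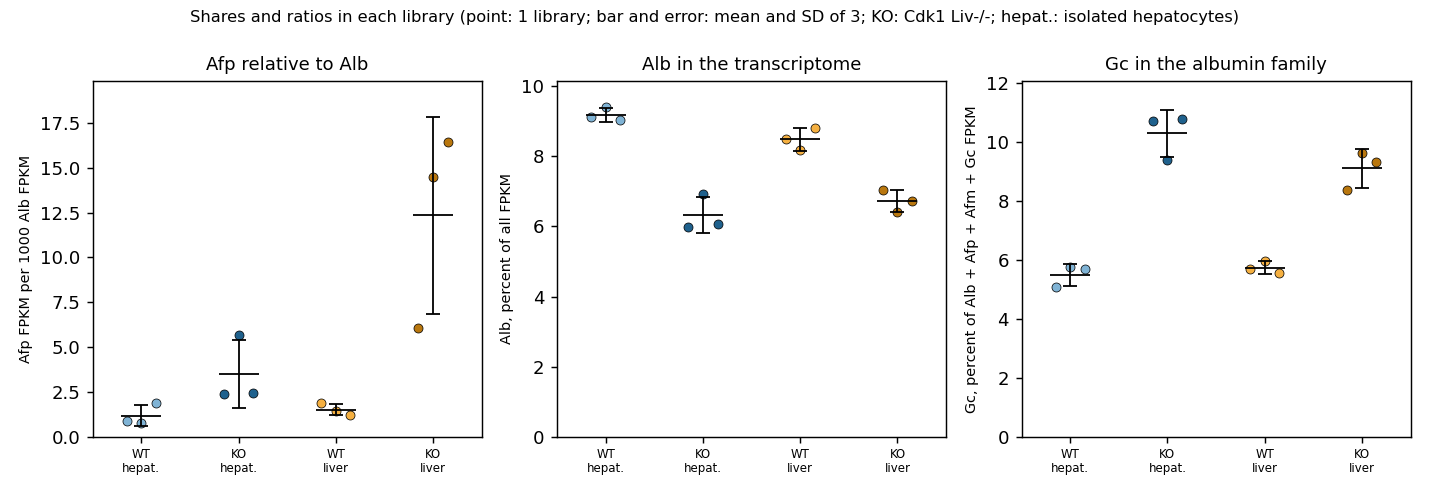
From left to right, FPKM of Afp per 1000 FPKM of Alb, the percentage of all FPKM in Alb, and the percentage of Gc in the summed FPKM of Alb, Afp, Afm and Gc (vertical axes, linear, from 0) in the 4 groups; points are libraries, bars means and errors SD of 3. The Afp ratio was at most 1.87 in WT libraries and at least 2.39 in Cdk1 Liv-/- libraries.

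Glypican 3, a heparan sulfate proteoglycan that restrains growth in the embryo, rose in both compartments. Gpc3 measured 25.4, 28.2 and 30.99 FPKM in WT hepatocytes and 100.5, 59.2 and 64.0 FPKM in Cdk1 Liv-/- hepatocytes. The whole liver values were 38.6, 33.3 and 26.9 FPKM in WT and 64.4, 54.0 and 87.3 FPKM in Cdk1 Liv-/-. No WT library reached the lowest Cdk1 Liv-/- library, and replicate 1 was the highest among Cdk1 Liv-/- hepatocytes. The means were 2.64 times and 2.08 times those of WT, with log2 fold changes of 1.35 (SE 0.21, adjusted p = 0.0139) in hepatocytes and 1.03 (SE 0.21, adjusted p = 0.0162) in whole liver. Without replicate 3 the whole liver change was 0.85 (adjusted p = 0.0348), and under median-ratio scaling also 0.85, so it passed the test but fell short of the size of 1 for a call. Gpc3 is X-linked, and replicate 3, the library with Xist, was the highest of the whole liver group; the part of sex in that value was not tested.

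Neither repressor of Afp fell at the RNA level in Cdk1 Liv-/- hepatocytes or whole liver. Zhx2, a zinc finger and homeobox protein, was 1.80, 1.63 and 2.16 FPKM in WT hepatocytes and 3.52, 3.23 and 3.14 FPKM in Cdk1 Liv-/- hepatocytes. Its whole liver level was 2.60, 2.34 and 2.21 FPKM in WT and 3.62, 3.20 and 3.16 FPKM in Cdk1 Liv-/-. The genotypes did not overlap. Zhx2 rose by 0.69 (SE 0.15, adjusted p = 0.0357) in hepatocytes and by 0.41 (SE 0.09, adjusted p = 0.02) in whole liver, there by 0.44 without replicate 3 (adjusted p = 0.0461) and by 0.25 under median-ratio scaling (adjusted p = 0.0999). In hepatocytes Zhx2 did not pass without WT replicate 1 (adjusted p = 0.115) and without Cdk1 Liv-/- replicate 1 (adjusted p = 0.101), at changes of 0.67 and 0.65. Since 0.5 was added before the logarithm, these values understate the ratios of the means, 1.77 and 1.40.

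Zbtb20, a BTB domain zinc finger protein, had the lowest level of the 7 genes. WT hepatocytes had 2.54, 1.49 and 1.36 FPKM and Cdk1 Liv-/- hepatocytes 2.18, 2.82 and 3.70 FPKM. For whole liver the table gave 1.11, 1.2 and 1.37 FPKM in WT and 1.76, 1.59 and 1.47 FPKM in Cdk1 Liv-/-. The genotypes overlapped in hepatocytes, where WT replicate 1 was above Cdk1 Liv-/- replicate 1, and did not overlap in whole liver. The log2 fold change was 0.58 (SE 0.26, adjusted p = 0.208) in hepatocytes and 0.29 (SE 0.10, adjusted p = 0.0661) in whole liver. The whole liver rise was lost under median-ratio scaling (0.15, adjusted p = 0.328) and when any of 4 of the 6 libraries was left out, WT replicate 1 or 2 or Cdk1 Liv-/- replicate 1 or 2 (adjusted p 0.118 to 0.184); without replicate 3 it was 0.33 (adjusted p = 0.0844).

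Ordered by mean level per length, Alb was followed by Gc in every group. Afm was in place 3 and Afp in place 4 in both WT groups, and Afp in place 3 and Afm in place 4 in both Cdk1 Liv-/- groups. In Cdk1 Liv-/- hepatocytes these neighbours overlapped, with 96.5 to 254 FPKM of Afp and 100.1 to 141 FPKM of Afm. Gpc3 was in place 5, Zhx2 in place 6 and Zbtb20 in place 7 throughout. Zhx2 and Zbtb20 overlapped in hepatocytes of both genotypes and were apart in whole liver. Gpc3 overlapped Afp in Cdk1 Liv-/- hepatocytes, where its replicate 1 lay above 2 of the 3 Afp values.

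Hepatocytes were next set against whole liver within each genotype, to see where the isolated cells differ from the organ. In WT, 0 of the 7 genes passed, where 1.52% of all genes did; limma gave 0 genes also at an unadjusted p under 0.05, and 0 passed by the two-sample test with q-values. The change of Afp was -0.38 (SE 0.35, adjusted p = 0.555), and without WT hepatocyte replicate 3, the WT hepatocyte library with the most Afp, it was -0.78 (adjusted p = 0.0651). In Cdk1 Liv-/-, 2 of 7 passed, where 44.7% of all genes did. Afp was lower in isolated hepatocytes than in whole liver by a log2 difference of -1.93 (SE 0.50, adjusted p = 0.0291), with no overlap, and Zbtb20 was higher by 0.67 (SE 0.18, adjusted p = 0.0348).

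Without replicate 3 of whole liver, Afp still passed at -1.65 (adjusted p = 0.0936), while Zbtb20, at 0.62, did not (adjusted p = 0.111). The all-gene median of this comparison moved from -0.19 to -0.05 under median-ratio scaling, where Afp was at -1.75 and Zbtb20 at 0.81. Over the 12 settings the adjusted p ran from 0.00719 to 0.152 for Afp and from 0.022 to 0.125 for Zbtb20.

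An interaction over all 12 libraries tested whether the effect of genotype depends on the compartment. By limma 0 of 7 genes passed, where 9.85% of all genes did; 1 gene, Afp, had an unadjusted p under 0.05, and 0 passed by the two-sample test with q-values. For Afp the change in hepatocytes minus that in whole liver was -1.55 (SE 0.66, adjusted p = 0.183), and -1.27 without whole liver Cdk1 Liv-/- replicate 3 (adjusted p = 0.312). Without Cdk1 Liv-/- hepatocyte replicate 2, the hepatocyte library with the most Afp, it was -2.004 and passed (adjusted p = 0.0905). The larger rise of Afp in whole liver is thus not shown to differ from that in hepatocytes.

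Markers of cell types were summed in each library, and the shares of all genes that rose or fell, given above, are the background of their counts. A list is said to be led by the gene with the highest mean over all 12 libraries, which is not the highest in every group. The 10 hepatocyte markers other than the 7 genes, of which Apoa1 was the most abundant, summed to 25989, 30973 and 28141 FPKM in WT hepatocytes and 20003, 17805 and 19019 FPKM in Cdk1 Liv-/- hepatocytes, and to 29527, 29891 and 29146 FPKM in WT and 21438, 20002 and 21233 FPKM in Cdk1 Liv-/- whole liver. Of the 10, 2 rose (Hnf4a and Cps1) and 2 fell (Apoa1 and Ttr) in hepatocytes, and 5 fell in whole liver, or 4 without replicate 3. The median log2 fold change of the 10 was -0.00867 in hepatocytes and -0.29 in whole liver. In hepatocytes the lower sum is therefore that of the most abundant markers, such as Apoa1 and Ttr, and not of the list in general. None of these markers was at 0 in any library.

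The 9 ductal markers, led by Spp1 (osteopontin), summed to 46.8, 50.7 and 59.2 FPKM in WT hepatocytes and 107, 166 and 126 FPKM in Cdk1 Liv-/- hepatocytes. In whole liver the sums were 89.0, 97.6 and 79.1 FPKM in WT and 307, 173 and 309 FPKM in Cdk1 Liv-/-. Of 8 tested, 5 rose in each compartment, among them Sox9, Krt7 and Epcam, and 3 rose in whole liver without replicate 3, Krt7 and Epcam no longer among them; 1 marker was at 0 in WT hepatocyte replicate 2. In Cdk1 Liv-/- hepatocytes the highest ductal sum, the highest Spp1 (119.9 FPKM) and the highest Afp were in the same library, replicate 2, whereas in Cdk1 Liv-/- whole liver replicate 2 had the lowest ductal sum and the middle value of Afp. The part of these cells in the rise of Afp and Gpc3 was not tested.

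Other non-parenchymal markers came next. All 8 sinusoidal endothelial markers, led by Fcgr2b, fell in Cdk1 Liv-/- hepatocytes, with sums of 136, 93.6 and 252 FPKM in WT and 64.3, 40.95 and 46.8 FPKM in Cdk1 Liv-/-. In whole liver these sums were 116, 137 and 167 FPKM in WT and 149, 182 and 152 FPKM in Cdk1 Liv-/-, and 2 of 8 rose, or 0 without replicate 3. The 8 stellate markers, led by Col3a1, summed to 205, 122 and 423 FPKM in WT hepatocytes and 119.8, 114 and 99.0 FPKM in Cdk1 Liv-/- hepatocytes, and to 449.9, 443 and 498 FPKM in WT and 829, 1021 and 789.6 FPKM in Cdk1 Liv-/- whole liver. Of these, 2 fell in hepatocytes and 5 rose in whole liver, also without replicate 3.

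Blood cell markers added to this. The 8 Kupffer cell markers, led by Cd5l, summed to 273, 145 and 496 FPKM in WT and 167, 126 and 107 FPKM in Cdk1 Liv-/- hepatocytes, with 1 of 8 lower, and to 371, 420.4 and 426 FPKM in WT and 492, 672 and 527 FPKM in Cdk1 Liv-/- whole liver, with 3 of 8 higher, near the 38% of all genes that rose there, or 2 without replicate 3. The 8 erythroid markers, led by Hbb-bs, summed to 148, 109 and 583 FPKM in WT and 72.5, 100.4 and 24.7 FPKM in Cdk1 Liv-/- hepatocytes, and to 1106, 1231 and 2172 FPKM in WT and 1166, 1769 and 1456 FPKM in Cdk1 Liv-/- whole liver, with 2 of 8 lower in hepatocytes and 3 of 8 in whole liver, or 2 without replicate 3. Neutrophil and monocyte markers, led by S100a9, rose in 5 of 7 in whole liver (2 of 7 without replicate 3), from sums of 68.6, 42.5 and 65.1 to 88.8, 298 and 241 FPKM, and in 1 of 7 in hepatocytes. Of 6 B cell markers 3 fell in hepatocytes and 2 in whole liver, where 0 passed by limma without replicate 3. Of 6 T and NK cell markers 1 fell in hepatocytes, and 0 passed in whole liver by limma with or without replicate 3. WT hepatocyte replicate 3 had the highest Kupffer, endothelial, stellate and erythroid sums among hepatocyte libraries and also the highest Afp among the WT hepatocytes, 116 FPKM. The part of these cells in the changes of the 7 genes was not tested. Under median-ratio scaling 3 ductal, 2 Kupffer, 0 sinusoidal endothelial, 5 stellate and 4 neutrophil and monocyte markers rose in whole liver by limma. On that scale, where more of all genes fell than as deposited, 6 hepatocyte, 3 erythroid and 3 B cell markers fell there.

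The genes around the family were compared to see whether neighbours moved together. From 0.5 Mb before Gc to 0.5 Mb after Afm the table lists 37 genes, of which 21 were tested, the family included. In hepatocytes 4 rose and 5 fell, and in whole liver 8 rose and 4 fell, with 7 and 4 without replicate 3. Under median-ratio scaling 3 rose and 5 fell in hepatocytes and 6 rose and 4 fell in whole liver. On that scale fewer of all genes rose and more fell in both compartments. The shares of all genes that follow are as deposited. The 8 of 21 that rose in whole liver are the same share as the 38% of all genes. The 5 of 21 that fell in hepatocytes and the 4 of 21 that fell in whole liver stand beside 6.61% and 7.53% of all genes, and whether the region differs from others was not tested. In whole liver Slc4a4, Gc, Ankrd17, Afp, Gm43449, Cxcl5, Cxcl1 and Cxcl2 rose, and Afm, Gm2602, 5830473C10Rik and Rassf6, which follow Afp on the map, fell. Between Afp and 5830473C10Rik, the antisense transcript Gm43449 rose by 0.90 in hepatocytes (adjusted p = 0.0426) and 0.77 in whole liver (adjusted p = 0.017), while the pseudogene Gm2602 fell by 1.29 (adjusted p = 0.0406) and by 1.13 (adjusted p = 0.0322).

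Beyond the family, Rassf6, a Ras association domain gene downstream of it, fell in whole liver by 0.40 (adjusted p = 0.0191). Ankrd17, an ankyrin repeat gene upstream of Alb, rose there by 0.30 (adjusted p = 0.0197), but was at 0.12 under median-ratio scaling (adjusted p = 0.151). Slc4a4, a sodium bicarbonate cotransporter beyond Gc, rose by 0.75 in hepatocytes (adjusted p = 0.0725) and 1.10 in whole liver (adjusted p = 0.00267). The neutrophil chemokine Cxcl1, 430.3 kb after the start of Alb, was 9.55, 6.28 and 2.14 FPKM in WT hepatocytes and 52.3, 34.8 and 29.9 FPKM in Cdk1 Liv-/- hepatocytes, and 4.71, 4.18 and 5.69 FPKM in WT and 21.2, 29.8 and 12.4 FPKM in Cdk1 Liv-/- whole liver. It rose by 2.77 (adjusted p = 0.0224) and 1.94 (adjusted p = 0.00847). Its neighbour Cxcl2 rose by 0.84 in hepatocytes (adjusted p = 0.099), though not under median-ratio scaling (adjusted p = 0.11), and by 1.64 in whole liver (adjusted p = 0.0293), and Cxcl5 by 1.29 in whole liver (adjusted p = 0.0241). In hepatocytes the predicted gene Gm9958, upstream of Alb, fell by 0.56 (adjusted p = 0.0656) and Gm43448, antisense to Afm, by 0.77 (adjusted p = 0.0781). The other tested genes of the region, Adamts3, Eif5al3-ps, Cox18, Ppbp, Pf4 and Mthfd2l, passed in neither compartment.

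**Figure D4:**
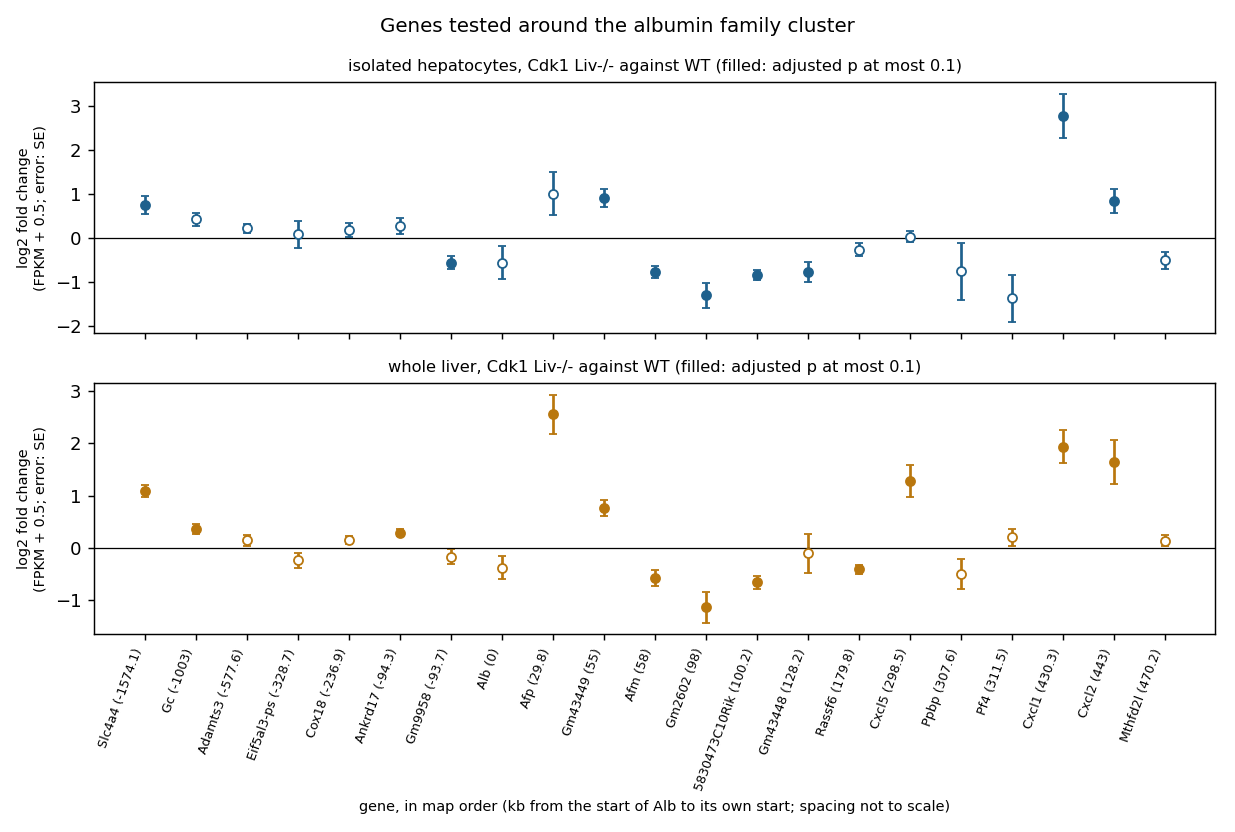
Log2 fold change of FPKM + 0.5 (vertical axes), Cdk1 Liv-/- against WT, of the 21 tested genes around the albumin family, in map order with the distance from the start of Alb in kb; spacing is not to scale, errors are SE from limma and filled points have an adjusted p of at most 0.1. In whole liver Afp (2.55) lies between Alb (-0.37) and Afm (-0.57).

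Genes that bear on the control of Afp and Alb were then described from lists, again to be read against the shares of all genes: 12.1% rose and 6.61% fell in hepatocytes, 38% rose and 7.53% fell in whole liver. These shares are as deposited. Under median-ratio scaling fewer of all genes rose and more fell in both compartments, with the counts given in the last section. Of 19 transcription factors known to act on these promoters, 2 rose and 0 fell in hepatocytes, where their median log2 fold change was 0.15 beside 0.05 for all genes, and 6 rose and 2 fell in whole liver, with a median of 0.06 beside 0.18, so the share that rose there was not above that of all genes. Gata6, a zinc finger factor of endoderm, was 2.21, 2.28 and 3.10 FPKM in WT and 4.92, 4.82 and 6.03 FPKM in Cdk1 Liv-/- hepatocytes. It rose by 0.93 (adjusted p = 0.0227), and by 0.60 in whole liver (adjusted p = 0.0058). Hnf4a was the other factor that rose in hepatocytes, though not under median-ratio scaling. Gata4, of the same family as Gata6, did not pass in hepatocytes as deposited (-0.76, adjusted p = 0.133) and fell there under median-ratio scaling by 0.85 (adjusted p = 0.0941), and Nfib, a nuclear factor I gene, did not pass (-0.22, adjusted p = 0.32).

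Cebpa, a factor of differentiated hepatocytes, fell in whole liver, from 95.8, 89.7 and 79.3 FPKM to 60.9, 59.5 and 65.3 FPKM, by 0.51 (adjusted p = 0.00896), and Foxa2, a pioneer factor of endoderm, fell by 0.60 (adjusted p = 0.0679). In hepatocytes the change of Cebpa was 0.03 (adjusted p = 0.893). Onecut1, a factor of early liver and bile duct development, rose in whole liver by 0.78 (adjusted p = 0.00615), while in hepatocytes it was 1.43, 0.45 and 0.93 FPKM in WT and 1.11, 10.3 and 6.13 FPKM in Cdk1 Liv-/-, overlapping (1.82, adjusted p = 0.157). Gata4, Cebpb, Trp53 and Cebpd also rose in whole liver. Without replicate 3, 4 rose and 2 fell there, with Cebpb and Cebpd no longer past the test. Under median-ratio scaling 3 rose and 5 fell, with Nfix, Hnf4a and Nfia added to the lower side. Gata4 (0.10, adjusted p = 0.357) did not pass there. That scaling lowers whole liver changes in general, so these counts are not to be read against the shares as deposited.

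Of 4 genes known to depend on Zhx2 in mouse liver, 1 rose and 1 fell in each compartment, also in whole liver without replicate 3. The list was not split by whether Zhx2 represses or activates a gene, so no common direction is to be expected. Lpl, lipoprotein lipase, which Zhx2 represses, was 222, 201 and 227 FPKM in WT and 143, 111 and 121 FPKM in Cdk1 Liv-/- hepatocytes, and 198, 192 and 209 FPKM in WT and 99.1, 97.1 and 96.5 FPKM in Cdk1 Liv-/- whole liver. It fell by 0.80 (adjusted p = 0.0105) and by 1.03 (adjusted p = 0.000286), without overlap. Mup20, a major urinary protein and pheromone, was 0.52, 0.24 and 0.45 FPKM in WT and 18.9, 13.3 and 58.4 FPKM in Cdk1 Liv-/- hepatocytes, and 0.45, 0.50 and 0.38 FPKM in WT and 7.70, 5.64 and 7.19 FPKM in Cdk1 Liv-/- whole liver. It rose by 4.81 (adjusted p = 0.00521) and 2.95 (adjusted p = 0.000234). Mup genes are alike in sequence, and reads shared among them, which were not examined, could make its level uncertain.

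H19, a maternally expressed noncoding RNA of fetal liver, was 3515, 3864 and 4745 FPKM in WT and 2496, 4508 and 2428 FPKM in Cdk1 Liv-/- hepatocytes, and 3793, 2902 and 3456 FPKM in WT and 2813, 3868 and 5821 FPKM in Cdk1 Liv-/- whole liver. The genotypes overlapped in both (-0.41, adjusted p = 0.385; 0.25, adjusted p = 0.525, and -0.03 without replicate 3). Elovl3, a fatty acid elongase, had at most 1.29 FPKM and did not pass (0.83, adjusted p = 0.248; -0.35, adjusted p = 0.228).

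Among the relatives of Zhx2, Zhx3 was 7.33, 7.02 and 6.61 FPKM in WT and 9.05, 9.54 and 12.6 FPKM in Cdk1 Liv-/- hepatocytes, where it rose by 0.53 (adjusted p = 0.0684). In whole liver it was at -0.16 (adjusted p = 0.181), and under median-ratio scaling it fell there by 0.34 (adjusted p = 0.0276) and did not pass in hepatocytes. Zhx1 (0.14, adjusted p = 0.59, and 0.13, adjusted p = 0.195) and Homez (0.37, adjusted p = 0.488, and 0.24, adjusted p = 0.148) did not pass in hepatocytes or whole liver. Without replicate 3, 0 of these 3 relatives passed in whole liver by limma, as with it.

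Of 4 further glypicans tested, which tether growth factors at the cell surface as Gpc3 does, 1 rose in hepatocytes and 4 rose in whole liver, with a median of 0.45 beside 0.18 for all genes there. Gpc1 was 0.38, 0.28 and 0.71 FPKM in WT and 2.56, 1.14 and 1.30 FPKM in Cdk1 Liv-/- hepatocytes, and rose by 1.15 (adjusted p = 0.0599) and by 1.10 in whole liver (adjusted p = 0.00424). Gpc2 (0.42, adjusted p = 0.0914), Gpc4 (0.26, adjusted p = 0.0772) and Gpc6 (0.48, adjusted p = 0.0663) rose in whole liver as deposited, without replicate 3 Gpc6 did not, and under median-ratio scaling Gpc1 alone did. In hepatocytes these 3 were at -0.23, 0.13 and -0.23 and did not pass. Gpc5, at 0.08 FPKM or less, was not tested.

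Fetal liver genes that are silenced after birth, as Afp is, numbered 13 tested of 16 listed. In whole liver 8 rose and 0 fell by limma, with a median of 0.60 beside 0.18, also 8 without replicate 3 and 7 under median-ratio scaling. In hepatocytes 3 rose and 3 fell, with a median of 0.26 beside 0.05. Hmga1, a chromatin protein of growing cells, was 12.4, 12.8 and 14.9 FPKM in WT and 33.9, 21.9 and 28.3 FPKM in Cdk1 Liv-/- hepatocytes, and rose by 1.02 (adjusted p = 0.0175) and by 0.76 in whole liver (adjusted p = 0.00309). Cd24a, a surface protein of progenitors and of ductal and blood cells, rose by 1.71 (adjusted p = 0.0589) and 1.38 (adjusted p = 0.0022).

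Of the remaining fetal genes, Sall4, a zinc finger factor of stem cells, rose in both compartments, though not in whole liver under median-ratio scaling, and Plagl1, an imprinted zinc finger gene, fell in hepatocytes and rose in whole liver. Mdk, a growth factor, rose in whole liver by 0.67 (adjusted p = 0.00642). In hepatocytes Mdk did not pass, with 2.90, 1.49 and 5.75 FPKM in WT and 0.78, 1.38 and 0.91 FPKM in Cdk1 Liv-/-, lower without overlap. Hmga2 passed in neither compartment (-0.28, adjusted p = 0.142, and -0.06, adjusted p = 0.54). Dlk1, a Notch-related protein of hepatoblasts, was 0.79, 0.58 and 0.78 FPKM in WT and 1.90, 2.71 and 3.08 FPKM in Cdk1 Liv-/- whole liver and rose by 1.32 (adjusted p = 0.00481), while in hepatocytes it was at most 0.28 FPKM (0.33, adjusted p = 0.19). Mest, an imprinted gene, fell in hepatocytes from 9.94, 5.97 and 26.1 FPKM to 2.11, 3.37 and 2.15 FPKM, by 2.02 (adjusted p = 0.0574), and Peg3, also imprinted, fell by 0.74 (adjusted p = 0.0807). In whole liver neither passed (0.24, adjusted p = 0.557, and -0.20, adjusted p = 0.422), and for Peg3 the changes in hepatocytes and whole liver did not differ by the interaction test (adjusted p = 0.304). Among hepatocyte libraries WT replicate 3 had the most Mest and Mdk, and also the highest Kupffer, endothelial, stellate and erythroid sums. The part of such cells in the hepatocyte changes of fetal genes was not tested.

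Of 16 other plasma carrier and transport proteins, 2 rose and 4 fell in hepatocytes, with a median of -0.24 beside 0.05, and 3 rose and 8 fell in whole liver, with a median of -0.21 beside 0.18. The haem and haemoglobin carriers Hpx and Hp rose by 1.09 (adjusted p = 0.0213) and 1.14 (adjusted p = 0.0139) in hepatocytes and by 1.05 (adjusted p = 0.0158) and 1.04 (adjusted p = 0.00122) in whole liver. Apoa1, the main protein of high density lipoprotein, was 8752, 11332 and 10829 FPKM in WT and 5026, 3813 and 5429 FPKM in Cdk1 Liv-/- hepatocytes and fell by 1.12 (adjusted p = 0.0293), and by 0.55 in whole liver (adjusted p = 0.0205). Igfals, the acid-labile subunit that holds IGF in plasma, fell by 1.35 (adjusted p = 0.0343) and by 1.25 (adjusted p = 0.0405), and Serpina6, which carries glucocorticoids, fell in whole liver by 1.49 (adjusted p = 0.00527). Without replicate 3, 4 rose and 5 fell in whole liver, and under median-ratio scaling 3 rose and 9 fell. On that scale fewer of all genes rose and more fell than in the shares as deposited.

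The handling of albumin and vitamin D binding protein was covered by 9 genes, of which 5 were tested. In hepatocytes 4 rose, with a median of 0.84 beside 0.05, and in whole liver 2 rose, also without replicate 3, near the share of all genes, with a median of 0.21 beside 0.18. Amn (amnionless), the membrane partner of the receptor cubilin, was 0.05, 0 and 0.05 FPKM in WT and 1.72, 1.41 and 1.35 FPKM in Cdk1 Liv-/- hepatocytes, and rose by 1.90 (adjusted p = 0.00129) and by 0.73 in whole liver (adjusted p = 0.0078). The vitamin D 25-hydroxylases Cyp2r1 and Cyp27a1 rose in hepatocytes by 0.96 (adjusted p = 0.0571) and 0.84 (adjusted p = 0.0859). B2m, the light chain of the neonatal Fc receptor that recycles albumin, rose by 0.43 (adjusted p = 0.0409) and 0.41 (adjusted p = 0.0406), while Fcgrt, its heavy chain, was at -0.47 (adjusted p = 0.101) and -0.03 (adjusted p = 0.712). Under median-ratio scaling Fcgrt fell in both compartments, Cyp27a1 did not pass in hepatocytes and B2m did not pass in whole liver.

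The genes whose pattern over the 12 libraries was most like that of Afp, Alb, Gpc3, Zhx2 or Zbtb20 were found among 12282 genes with a mean of at least 1 FPKM, as a description. They are the 3 highest by Pearson's r, given with Spearman's rho, and by rho other genes can be closer, for Zhx2 Lap3 (rho = 0.965), Tchp (0.958) and Bag3 (0.951). The 12 libraries fall into 4 groups, so a likeness can come from group means alone. Afm and Gc were not examined in this way. Closest to Afp were Bex1 (r = 0.974, rho = 0.923), Wbp5 (0.972 and 0.881) and Ddx39 (0.969 and 0.853). For Alb they were Hao2, a hydroxyacid oxidase (0.978 and 0.888), Hsd3b1, a steroid dehydrogenase (0.969 and 0.902), and F2, prothrombin (0.966 and 0.937). Gpc3 was followed most closely by Ghdc (0.978 and 0.965), the fetal gene Hmga1 (0.970 and 0.972) and H1fx, a linker histone (0.970 and 0.916). For Zhx2 the genes were Akr1b3 (0.967 and 0.902), Fam207a (0.962 and 0.830) and Emp2 (0.959 and 0.853), and for Zbtb20 Cpeb3 (0.974 and 0.893), Garem (0.971 and 0.972) and Gm16332 (0.969 and 0.979). The level of Bex1 ran from 2.27 to 15.1 FPKM and that of Hao2 from 11.3 to 99.3 FPKM over the libraries.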

How the data were processed

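Polyadenylated RNA was read from a single end for 75 bp, and the authors deposited 1 table of FPKM to 2 decimals, which they made with STAR and RSEM 1.2.31 on mm10 (submitters' processing notes), with no normalization between libraries. Libraries were grouped by the labels into 4 groups of 3. Here, limma 3.58.1 in R 4.3.3 was run on log2(FPKM + 0.5) with a trend of the variance with expression, two-sided, within each comparison, and on all 12 libraries for the interaction. P-values were adjusted by Benjamini-Hochberg over the 17386 genes whose mean FPKM reached 0.1. The thresholds were an adjusted p of 0.1 and, for calls, a log2 fold change of 1. The code was tested on simulated data. Depth was estimated from the steps of low FPKM values, with 34.7 to 49.8 reads per FPKM and kb.

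The members and lists were chosen with earlier results of these data known. Of the transcription factor list, 1 gene is not reported here. Named by rule were all members, Cdk1, Xist, 4 Y-linked genes, every gene of the short lists and tested genes within 0.5 Mb of the family. The rule also covered the 2 highest and 2 lowest of longer lists per comparison and the 3 genes most like a member by Pearson's r. Named beyond the rule were cell type markers, Lap3, Tchp and Bag3, and the list genes Hnf4a, Cebpb, Trp53, Nfix, Nfia, Sall4, Plagl1 and Serpina7. Of 47069 genes, 46488 had an annotation in GENCODE M21. Alternatives were pseudocount, filter, scaling, variance trend, 1 fit of all libraries, the replicate number, a two-sample test with q-values and leaving out each library. List counts without whole liver Cdk1 Liv-/- replicate 3 and under median-ratio scaling were added after the data had been seen.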

Additional observations from a re-analysis of the deposited data

Results flagged for a closer look

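Of 64 genes tested from the gene lists, 13 had a genotype change that differed between isolated hepatocytes and whole liver by the interaction test of limma over all 12 libraries, where 9.85% of all genes did. The 10 that the rule for named genes covers are given here, and Hnf4a, Plagl1 and Serpina7 also passed. Values are the log2 change in hepatocytes minus that in whole liver. It was higher in hepatocytes for Mup20 by 1.86 (adjusted p = 0.0972), Serpina6, which carries glucocorticoids in plasma, by 1.60 (adjusted p = 0.0406), Cyp27a1 by 1.19 (adjusted p = 0.0828), Amn by 1.17 (adjusted p = 0.0183), Zhx3 by 0.69 (adjusted p = 0.0608) and Cebpa by 0.54 (adjusted p = 0.0905). It was lower in hepatocytes for Mest at -2.26 (adjusted p = 0.0754), Mdk, a growth factor of fetal tissues, at -1.88 (adjusted p = 0.0598), Gata4 at -1.04 (adjusted p = 0.0813) and Dlk1 at -0.98 (adjusted p = 0.0616). In hepatocytes Dlk1 had at most 0.28 FPKM, below the 0.5 added before the logarithm. That value makes its hepatocyte change smaller, so the size of its difference depends in part on it. Amn had at most 0.05 FPKM in WT hepatocytes and 0.10 FPKM in WT whole liver, so the sizes of its changes and of their difference also depend on the added 0.5. Serpina6 was 300.5, 316 and 312 FPKM in WT and 392, 408 and 234 FPKM in Cdk1 Liv-/- hepatocytes, and 413, 433 and 406 FPKM in WT and 186, 108 and 162 FPKM in Cdk1 Liv-/- whole liver. Mdk was 2.90, 1.49 and 5.75 FPKM in WT and 0.78, 1.38 and 0.91 FPKM in Cdk1 Liv-/- hepatocytes, and 7.08, 8.08 and 7.08 FPKM in WT and 11.2, 11.4 and 13.6 FPKM in Cdk1 Liv-/- whole liver. Without whole liver Cdk1 Liv-/- replicate 3, the library with Xist, Serpina6 (adjusted p = 0.0674) and Amn (adjusted p = 0.0203) passed among the 741 genes that did so. The other 8 did not, with adjusted p from 0.107 for Mdk to 0.143 for Mup20, while their differences stayed near those above, such as -1.80 for Mdk, -2.29 for Mest, 1.89 for Mup20 and -1.12 for Gata4. Under median-ratio scaling 958 genes passed, and Mup20 (1.99, adjusted p = 0.105), Gata4 (-0.95, adjusted p = 0.106) and Dlk1 (-0.84, adjusted p = 0.101) did not. Of the 8 sinusoidal endothelial markers 7 also passed the interaction test, all lower in hepatocytes, and the part of such cells in these differences was not tested.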

How the results depend on the processing

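Of 168 genotype changes of the members under the 12 planned settings, 142 kept direction and side of the threshold, 13 lost the threshold, 13 gained it and 0 reversed. With a library left out the numbers were 73, 10, 1 and 0 of 84. In the other comparisons 392 of 413 kept both, 3 lost the threshold, 3 gained it and 15 reversed, none past the test either way. What lies behind these shifts was not tested. FPKM without counts, 3 libraries per group and low levels of Zhx2 and Zbtb20 limit what can be detected.

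In hepatocytes, genes past the test were 3257, and 1207 with no filter, 5506 in 1 fit of all libraries, 1830 at an adjusted p of 0.05 and 1569 to 2493 with a library left out. Members past the test were 3, and 5 with a filter at 1 FPKM, 6 in 1 fit of all libraries, 5 without the trend and 5 by the two-sample test with q-values. At these 4 settings Alb passed at -0.56 and Gc at 0.42, Gc also at 0.44 with the same sum in every library. Zbtb20 passed at 0.58 in 1 fit of all libraries. Afm lost the threshold at -0.77 with no filter. Zhx2 ran from 0.62 to 0.78 with a library left out. The higher and lower split was 2108 to 1149, and 1669 to 1511 under median-ratio scaling and 1662 to 1436 with the same sum without the 50 highest genes.

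In whole liver 7920 genes passed, and 5015 with no filter, where 3 members passed in place of 6. Alb passed at -0.37 with a filter at 1 FPKM, without the trend and by the two-sample test, and ran from -0.40 to -0.34 with a library left out. Afm lost the threshold at -0.57 with no filter. Gc lost it at 0.36 with no filter, at 0.17 under median-ratio scaling and at 0.24 with the same sum without the 50 highest genes, and ran from 0.33 to 0.40 with a library left out. Zbtb20 lost it at 0.29 with no filter, in 1 fit of all libraries and at an adjusted p of 0.05, at 0.15 under median-ratio scaling and at 0.19 with the same sum without the 50 highest genes, and ran from 0.24 to 0.35. The split was 6610 to 1310, and 3440 to 2501 under median-ratio scaling and 4391 to 1882 with the same sum without the 50 highest genes.

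Between compartments in WT, 265 genes passed, and 72 with no filter, 89 with a filter at 1 FPKM, 85 under median-ratio scaling, 119 with the same sum, 84 with the same sum without the 50 highest genes, 510 in 1 fit of all libraries, 32 at an adjusted p of 0.05 and 1 to 3056 with a library left out. The lowest came without WT hepatocyte replicate 1 and the highest without WT hepatocyte replicate 3. Members past were 0 to 1, and Gc ran from -0.0507 to 0.10. In Cdk1 Liv-/-, members past were 2, and 0 with no filter and 1 to 2 with a library left out. There, under median-ratio scaling and with the same sum without the 50 highest genes, Alb reversed to 0.0703 and 0.039, Afm to 0.0573 and 0.0262 and Zhx2 to 0.15 and 0.12, Zhx2 also to 0.00815 with the same sum. With a library left out Zhx2 ran from -0.0524 to 0.0438 and Gpc3 from -0.13 to 0.29. The split of 1540 to 6234 became 2675 to 4330 and 2197 to 4513 under these scalings.

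For the interaction 1712 genes passed, and 301 with no filter, 958 under median-ratio scaling, 2638 by the two-sample test, 272 at an adjusted p of 0.05 and 74 to 2641 with a library left out. Members past were 0 to 1, and Gc ran from -0.0247 to 0.12. The split of 409 to 1303 became 424 to 534 under median-ratio scaling.

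Replicate numbers did not pair the samples, since deviations of same-numbered libraries correlated at -0.317 to 0.239. With a replicate block, 1456 genes passed in hepatocytes, 0 between compartments in WT by limma and 656 for the interaction. Zhx2 at 0.69 in hepatocytes and Gc at 0.36 and Zbtb20 at 0.29 in whole liver were then not past the threshold. The block moved no other genotype change of a member across the threshold.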
